A study of Saccharomyces cerevisiae with 8 samples.

Results

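The 10 genes described here encode peroxiredoxins (TSA1, TSA2, AHP1, DOT5, PRX1), the cytosolic thioredoxin and thioredoxin reductase TRX2 and TRR1, the superoxide dismutases SOD1 and SOD2, and the cytochrome c peroxidase CCP1 of the yeast Saccharomyces cerevisiae. They were taken by name from a table of RNA-Seq read counts for 7127 genes. All 10 were among the 5430 genes that reached at least 10 CPM (counts scaled to the size of the library) in at least 2 of the 8 libraries and were tested. RNA was sequenced from the strains CRN and CRN/PPN2, which were grown in the rich medium YPD or in the same medium supplemented with KOH at 20 mM. Each of these 4 groups had 2 libraries. The study asked how expression of the polyphosphatase gene PPN2 changes the cells and their growth in mild alkali.

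CRN has the genotype MATa ade2 his3 ura3 ppn1Δ::CgTRP1, so PPN1, a polyphosphatase gene, was missing from all 4 groups. The strain CRN/PPN2 carries in addition the plasmid pMB1_PPN2 Sc, a centromeric vector with the marker URA3 that drives PPN2 from the constitutive TDH3 promoter. CRN without a plasmid served as its control, and no library of an empty vector was analysed here. Cells of both strains were harvested after 16 h in YPD, CRN after 40 h with KOH, and CRN/PPN2 after 25 h with KOH. Lysis differed too: Trizol LS was added directly to CRN/PPN2 cells from the KOH medium, which had been washed with sorbitol in the water, and all other cells went through freezing and a French press. KOH and a later harvest cannot be told apart in either strain, and for CRN/PPN2 with KOH neither can the lysis. Between the strains with KOH, strain, harvest time and lysis cannot be told apart, and each strain difference with KOH given below carries this limit.

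The 6 libraries of the other groups held 3844316 to 5004823 counts, and the CRN/PPN2 libraries with KOH held 1559324 and 796548. A gene's log2 level had an SD between replicates of 0.165 to 0.214 in those 3 groups and of 0.308 in CRN/PPN2 with KOH. PPN1 had 0 or 1 count in every library, and PPN2 was higher in CRN/PPN2 by a log2 fold change of 4.98 in YPD and 4.83 with KOH. The 4 marker genes of MATa cells together reached 915 to 1250 CPM in 6 libraries, and 807 and 545 CPM in CRN/PPN2 with KOH. The 3 MATalpha markers together reached 2.73 to 6.54 CPM in 6 libraries and 31 and 37.9 CPM in CRN/PPN2 with KOH. In that group the means were 17.4 CPM for the pheromone gene MF(ALPHA)1 and 16.4 for STE3, beside 0.11 and 2.69 in CRN in YPD. The other pheromone gene, MF(ALPHA)2, had 0 to 2 counts in each library. The part of these transcripts in the results below was not tested. Whether replicates were separate cultures is not stated in the labels, and each p-value therefore covers only the variation among these libraries, which may be technical.

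Peroxiredoxins reduce hydrogen peroxide and organic hydroperoxides through a cysteine that becomes oxidized in each cycle. In the cytosol, thioredoxin restores that cysteine and is in turn reduced by thioredoxin reductase with electrons from NADPH. Superoxide dismutases produce hydrogen peroxide from superoxide, and cytochrome c peroxidase removes it in the mitochondrial intermembrane space. In S. cerevisiae, the transcription factors Yap1 and Skn7 switch on several of these genes under oxidative stress.

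TSA1 and TSA2 encode near copies of the main cytosolic peroxiredoxin. Their coding sequences were identical at 464 of 591 bases (78.5%), with no identical run longer than 14 bases. The stretch shown is the one around the longest identical run, of 14 bases, with differing bases on both sides of it. It covers coding bases 73 to 128 in RefSeq's R64 assembly, at chrXIII:220210-220265 on the forward strand for TSA1 and chrIV:1365535-1365590 on the reverse strand for TSA2, and capitals mark the 12 bases at which the genes differ.
TSA1: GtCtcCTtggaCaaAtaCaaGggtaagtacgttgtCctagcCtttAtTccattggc
TSA2: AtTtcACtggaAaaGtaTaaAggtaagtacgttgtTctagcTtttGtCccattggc

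The other pairs of near copies also differed throughout. TRX2 and its partner TRX1, the other cytosolic thioredoxin gene, were identical at 73.7% of 312 aligned bases with no run over 17. TRR1 and TRR2, the mitochondrial thioredoxin reductase gene, were identical at 75.8% of 960 bases with no run over 20. Each of the 10 genes has a single coding exon. TSA2 (YDR453C, chrIV:1365072-1365662) ends 169 bases from PPN1, the gene deleted in all 4 groups, which faces it on the opposite strand.

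Levels spanned a wide range. Per kilobase of coding length, TSA1 was the highest in YPD, at 2430 ± 589 (SD, n = 2) TMM-scaled CPM in CRN and 2020 ± 54 in CRN/PPN2, followed by SOD1 and TRX2. TSA2 was the lowest in all 4 groups, at 17 to 64.7 CPM per kilobase, and DOT5 the next lowest. With KOH the order at the top changed, to AHP1, TSA1 and SOD1 in CRN and to TRX2, TSA1 and SOD1 in CRN/PPN2. In CRN with KOH, AHP1 (1470 ± 352) and TSA1 (1310 ± 116) did not differ beyond their spread, whereas in CRN/PPN2 with KOH the lower TRX2 library (1930) lay above the higher TSA1 library (1550). The 10 genes together held 0.3 to 0.446% of a library's counts.

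**Figure D1:**
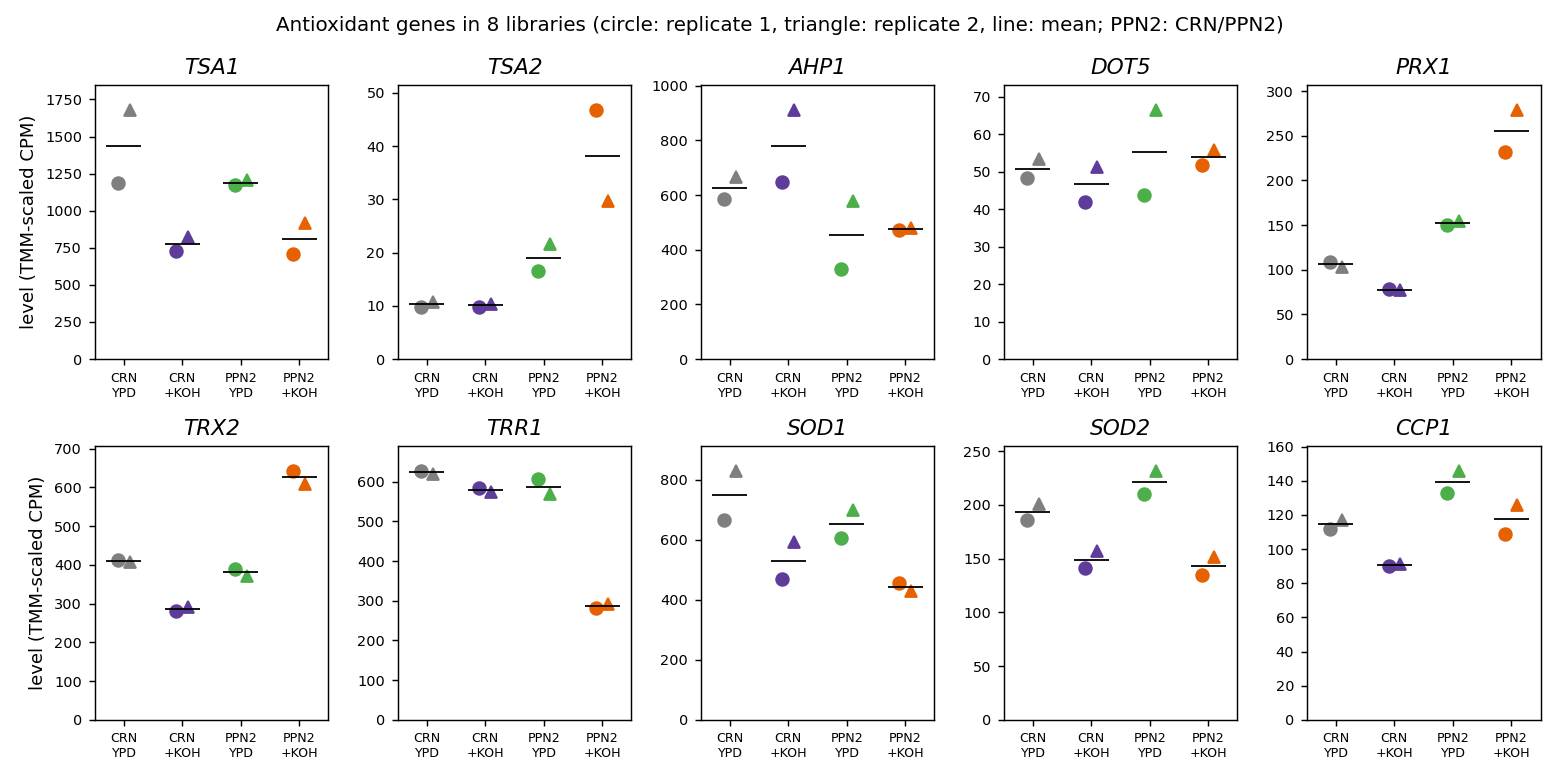
Level of each gene in TMM-scaled CPM (y axis, from 0) in the 4 groups (x axis), with a point for each library and a line for the mean of 2. In CRN/PPN2 with KOH, TRX2 stands at 643 and 608 CPM above the other 6 libraries, and TRR1 at 282 and 292 below them.

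In YPD, where the strains were compared after the same 16 h and the same lysis, CRN/PPN2 had a higher level of 2 of the 10 genes and a lower level of none by edgeR's quasi-likelihood test at a Benjamini-Hochberg adjusted p under 0.05. Of all genes tested, 6.5% were called, 4.13% higher and 2.38% lower. TSA2 rose by 0.89 on the log2 scale (SE 0.23, edgeR adjusted p = 0.0258) and PRX1, the gene of the mitochondrial peroxiredoxin, by 0.53 (SE 0.12, edgeR adjusted p = 0.0117). The other 8 genes had log2 fold changes between -0.50 (AHP1) and 0.28 (CCP1). The median of the 10 genes was 0.01, the same as that of all genes tested. Both calls depended on the fit. With every library thinned to the smallest total both were lost (edgeR adjusted p = 0.405 for TSA2 and 0.116 for PRX1). With DESeq2 the call of TSA2 was lost (DESeq2 adjusted p = 0.101). Without the replicate block the adjusted p was 0.0764 for TSA2 and for PRX1, and without any single YPD library it was 0.0558 to 0.346 for TSA2 and 0.0886 to 0.315 for PRX1, at log2 fold changes of 0.61 to 1.13 and 0.44 to 0.61. TSA2 also lost its call when either CRN +KOH library was left out (0.0646 for replicate 1 and 0.0711 for replicate 2).

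With KOH, CRN/PPN2 vs. CRN gave 4 genes higher (TSA2, PRX1, TRX2, CCP1) and 2 lower (TRR1, AHP1), beside 56.7% of all genes tested that were called, 30.8% higher and 25.9% lower. The direction split within the thioredoxin system: TRX2 was 2.18-fold higher and TRR1 2.02-fold lower. The median of the 10 genes was a log2 fold change of 0.15, and that of all genes tested 0.03. CCP1 was the least certain of these calls, at 0.36 (SE 0.14, adjusted p = 0.0305). It was lost without the replicate block (adjusted p = 0.0721), without either CRN YPD library (0.056 and 0.0636), without either CRN +KOH library (0.0716 and 0.182) and without CRN/PPN2 +KOH replicate 2 (0.0918), at log2 fold changes of 0.30 to 0.42. It was also lost with DESeq2 (0.0831), upper quartile factors (0.122), no low-count filter (0.103), filterByExpr (0.0509) and the 4 libraries alone (0.189), at 0.25 to 0.36, and with every library thinned to the smallest total it was 0.16 (0.537).

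In KOH vs. YPD in CRN, 5 genes were lower with KOH (TSA1, TRX2, SOD1, PRX1, SOD2) and none was higher, beside 15.1% of all genes tested that were called, 7.61% lower and 7.53% higher. The median of the 10 genes was -0.36, and that of all genes tested 0.01. TSA1 fell the most, by 0.88 on the log2 scale. TSA1 remained called without any single library (highest adjusted p = 0.0448). Without any one of the 4 CRN libraries the other 4 calls were lost, with adjusted p of 0.0977 to 0.285 for PRX1, 0.0933 to 0.128 for TRX2, 0.0775 to 0.275 for SOD1 and 0.193 to 0.267 for SOD2, and SOD2 was also lost without CRN/PPN2 YPD replicate 1 (0.057) or 2 (0.0515). Their log2 fold changes stayed between -0.60 and -0.36 in those fits. Without the replicate block PRX1, SOD1 and SOD2 were not called (adjusted p = 0.0956, 0.111 and 0.162).

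In KOH vs. YPD in CRN/PPN2, 3 genes were higher with KOH (TSA2, PRX1, TRX2) and 4 were lower (TRR1, SOD2, TSA1, SOD1), beside 54.7% of all genes tested that were called, 29.2% higher and 25.5% lower. The median of the 10 genes was -0.13, and that of all genes tested -0.01. This comparison and the strain comparison with KOH use the same CRN/PPN2 libraries with KOH. The largest changes were 1.08 for TSA2 and -1.04 for TRR1 on the log2 scale. No call of this comparison was lost without the replicate block.

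**Figure D2:**
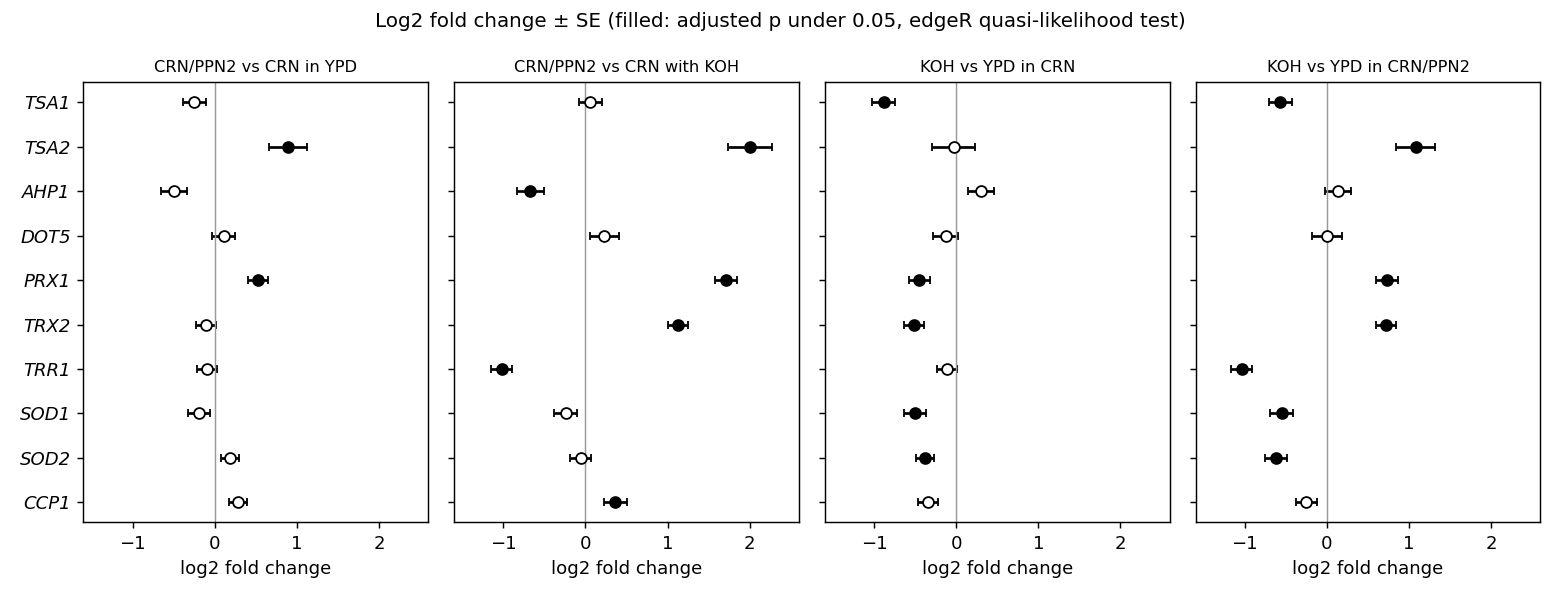
Log2 fold change (x axis) with its SE for each gene (y axis) in the 4 comparisons, with filled points for an adjusted p under 0.05 in edgeR's quasi-likelihood test. TSA2 and PRX1 are filled on the right in 3 panels, and TRR1 is filled only in the panels that use CRN/PPN2 with KOH.

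Of the peroxiredoxins, TSA2 was the least abundant and had the largest strain difference. Its levels were 9.77 and 10.8 CPM in CRN in YPD, 9.83 and 10.3 in CRN with KOH, 16.5 and 21.6 in CRN/PPN2 in YPD, and 46.8 and 29.6 in CRN/PPN2 with KOH. Every CRN/PPN2 library lay above every CRN library, and both CRN/PPN2 libraries with KOH lay above those in YPD. In CRN, TSA2 lay near the filter of 10 CPM, and the CRN libraries alone did not pass it. TSA2 was tested through its CRN/PPN2 libraries, so its strain difference is not independent of that filter. The strain difference with KOH was a log2 fold change of 2.00 (SE 0.27, edgeR adjusted p = 5.89e-06), or 4-fold. KOH vs. YPD gave 1.08 in CRN/PPN2 (SE 0.24, edgeR adjusted p = 0.000952) and -0.03 in CRN (95% interval -0.55 to 0.49). The last 2 libraries held 74 and 25 counts of TSA2, and without CRN/PPN2 +KOH replicate 1 the KOH effect in CRN/PPN2 was 0.52 (edgeR adjusted p = 0.208).

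TSA1, the abundant copy, was lower with KOH in both strains, and in CRN/PPN2 its change was opposite in direction to that of TSA2. It had 1190 and 1680 CPM in CRN in YPD, 726 and 823 in CRN with KOH, 1170 and 1210 in CRN/PPN2 in YPD, and 706 and 918 in CRN/PPN2 with KOH. In both strains the libraries with KOH lay below those in YPD, without overlap. The log2 fold change was -0.88 in CRN (SE 0.14, edgeR adjusted p = 0.000259) and -0.57 in CRN/PPN2 (SE 0.14, edgeR adjusted p = 0.00262). The call in CRN/PPN2 was lost without CRN/PPN2 YPD replicate 1 (-0.42, edgeR adjusted p = 0.0945). The strain difference was -0.25 in YPD (95% interval -0.52 to 0.02) and 0.06 with KOH (95% interval -0.22 to 0.34), with a p that missed the threshold in both media. The ratio of TSA1 to TSA2 counts went from 122 and 156 in CRN in YPD to 15.1 and 31 in CRN/PPN2 with KOH.

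PRX1 encodes the peroxiredoxin of the mitochondrial matrix. Its levels were 109 and 103 CPM in CRN in YPD, 77.9 and 77 in CRN with KOH, 150 and 154 in CRN/PPN2 in YPD, and 232 and 279 in CRN/PPN2 with KOH. The 4 groups did not overlap, in the order CRN with KOH, CRN in YPD, CRN/PPN2 in YPD, CRN/PPN2 with KOH. PRX1 fell with KOH in CRN by 0.45 on the log2 scale (SE 0.13, edgeR adjusted p = 0.0214) and rose with KOH in CRN/PPN2 by 0.73 (SE 0.13, edgeR adjusted p = 9.5e-05). The strain difference with KOH was 1.71 (SE 0.13, edgeR adjusted p = 8.52e-09), and it was 1.58 within replicate 1 and 1.86 within replicate 2.

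AHP1 encodes a cytosolic peroxiredoxin that prefers organic hydroperoxides. It had 584 and 667 CPM in CRN in YPD, 648 and 912 in CRN with KOH, 331 and 577 in CRN/PPN2 in YPD, and 473 and 481 in CRN/PPN2 with KOH. It was the one peroxiredoxin of lower level in every CRN/PPN2 library than in every CRN library. In YPD the strains also did not overlap for TRX2 and TRR1, which were lower in CRN/PPN2, and for SOD2 and CCP1, which were higher. None of these was called. The strain difference was -0.67 with KOH (SE 0.16, edgeR adjusted p = 0.00182). In YPD it was -0.50 (95% interval -0.81 to -0.19, edgeR adjusted p = 0.0661), with -0.82 within replicate 1 and -0.21 within replicate 2. That difference in YPD was called without CRN/PPN2 YPD replicate 2 (-0.80, edgeR adjusted p = 0.0463) and without CRN/PPN2 +KOH replicate 1 or 2 (edgeR adjusted p = 0.00412 and 0.00406).

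DOT5, which encodes a nuclear peroxiredoxin, showed no call. Its levels lay between 42 and 66.5 CPM in all 8 libraries, with the lowest in CRN with KOH and the highest in CRN/PPN2 in YPD. The 95% intervals of its log2 fold changes were -0.17 to 0.39 and -0.13 to 0.60 between the strains in YPD and with KOH, and -0.42 to 0.16 and -0.36 to 0.35 for KOH in CRN and in CRN/PPN2.

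The thioredoxin gene TRX2 and the reductase gene TRR1 had narrow replicate spread and opposite changes in CRN/PPN2 with KOH. TRX2 had 412 and 407 CPM in CRN in YPD, 281 and 292 in CRN with KOH, 389 and 372 in CRN/PPN2 in YPD, and 643 and 608 in CRN/PPN2 with KOH. It fell with KOH in CRN by 0.51 on the log2 scale (SE 0.12, edgeR adjusted p = 0.00695) and rose with KOH in CRN/PPN2 by 0.72 (SE 0.12, edgeR adjusted p = 9.09e-05). In YPD the strains differed by -0.11 (95% interval -0.34 to 0.13), and with KOH by 1.13 (SE 0.12, edgeR adjusted p = 6.72e-07). Within replicates 1 and 2 the difference with KOH was 1.19 and 1.06.

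TRR1 had 628 and 620 CPM in CRN in YPD, 584 and 575 in CRN with KOH, 606 and 568 in CRN/PPN2 in YPD, and 282 and 292 in CRN/PPN2 with KOH. Only the last pair stood apart, below the range of 568 to 628 of the other 6 libraries. TRR1 fell with KOH in CRN/PPN2 by 1.04 on the log2 scale (SE 0.13, edgeR adjusted p = 3.38e-06), and in CRN the change was -0.11 (95% interval -0.34 to 0.13). The strain difference with KOH was -1.02 (SE 0.13, edgeR adjusted p = 3.85e-06), with -1.05 and -0.98 within replicates 1 and 2. The ratio of TRX2 to TRR1 counts was 0.481 to 0.657 in 6 libraries and 2.28 and 2.09 in CRN/PPN2 with KOH.

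TRX1, the near copy of TRX2, was not called in any of the 4 comparisons. Its mean level was 428 to 454 CPM in all 4 groups, and its log2 fold changes were between -0.07 and 0.09. The ratio of TRX2 to TRX1 counts was 0.618 and 0.643 in CRN with KOH, 0.838 to 0.967 in YPD, and 1.18 and 1.86 in CRN/PPN2 with KOH. TRX1 itself had a wide spread there (435 ± 153 CPM, SD, n = 2). TRR2, the near copy of TRR1, was not called either, with -0.20 (SE 0.19) for KOH vs. YPD in CRN/PPN2.

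**Figure D3:**
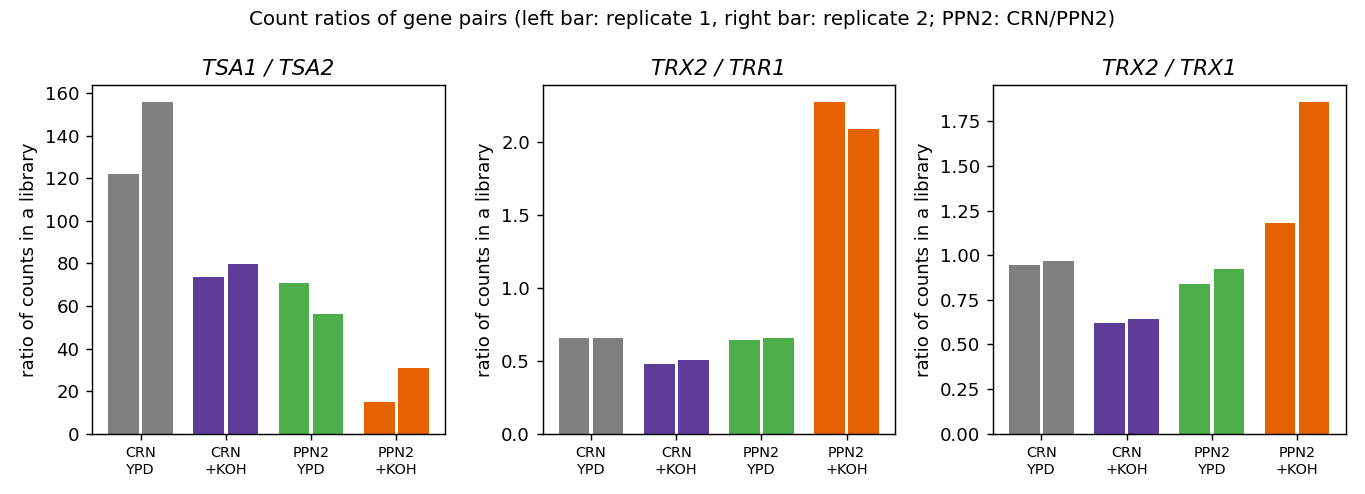
Ratio of the counts of 2 genes in each library (y axis, from 0) by group (x axis), with a bar for each replicate. TRX2 to TRR1 stands at 2.28 and 2.09 in CRN/PPN2 with KOH and at no more than 0.657 elsewhere, and TSA1 to TSA2 is lowest in the same libraries, at 15.1 and 31.

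The superoxide dismutases fell with KOH in both strains. SOD1, the cytosolic copper and zinc enzyme, had 667 and 830 CPM in CRN in YPD, 469 and 591 in CRN with KOH, 606 and 700 in CRN/PPN2 in YPD, and 457 and 428 in CRN/PPN2 with KOH. Its log2 fold change with KOH was -0.50 in CRN (SE 0.13, edgeR adjusted p = 0.0162) and -0.55 in CRN/PPN2 (SE 0.14, edgeR adjusted p = 0.00293). SOD1 did not pass between the strains (95% intervals -0.45 to 0.07 in YPD and -0.51 to 0.03 with KOH), although without CRN/PPN2 +KOH replicate 1 the difference with KOH was -0.44 (edgeR adjusted p = 0.00721) and with upper quartile factors -0.35 (edgeR adjusted p = 0.0389).

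SOD2, the manganese enzyme of the mitochondrial matrix, had 186 and 201 CPM in CRN in YPD, 141 and 157 in CRN with KOH, 210 and 232 in CRN/PPN2 in YPD, and 135 and 152 in CRN/PPN2 with KOH. The libraries with KOH lay below those in YPD in both strains. SOD2 fell with KOH by 0.38 on the log2 scale in CRN (SE 0.11, edgeR adjusted p = 0.0317) and by 0.62 in CRN/PPN2 (SE 0.13, edgeR adjusted p = 0.000478). The ratio of SOD1 to SOD2 counts stayed between 2.82 and 4.13 in all libraries.

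CCP1, whose product reduces hydrogen peroxide with electrons from cytochrome c, had 112 and 117 CPM in CRN in YPD, 90.3 and 91.2 in CRN with KOH, 133 and 146 in CRN/PPN2 in YPD, and 109 and 126 in CRN/PPN2 with KOH. In each medium both CRN/PPN2 libraries lay above both CRN libraries. The KOH effect was -0.34 in CRN (95% interval -0.57 to -0.11, edgeR adjusted p = 0.0598) and -0.25 in CRN/PPN2 (95% interval -0.51 to 0.00, edgeR adjusted p = 0.112). The effect in CRN was called without CRN/PPN2 +KOH replicate 1 or 2 (edgeR adjusted p = 0.0175 and 0.0132).

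Whether the KOH effect differed between the 2 strains was tested as the difference of the effects (CRN/PPN2 minus CRN). TRX2 (1.23, SE 0.17, edgeR adjusted p = 3.49e-05), PRX1 (1.18, SE 0.18, edgeR adjusted p = 7.28e-05) and TSA2 (1.11, SE 0.35, edgeR adjusted p = 0.0191) had a higher effect in CRN/PPN2, and TRR1 a lower one (-0.93, SE 0.18, edgeR adjusted p = 0.000605). Of all genes tested, 39.7% were called, 22.2% higher and 17.6% lower. For the 3 genes that fell with KOH in both strains the difference did not pass, with 95% intervals of -0.08 to 0.70 for TSA1, -0.42 to 0.33 for SOD1 and -0.58 to 0.09 for SOD2. The TSA2 difference was the least certain. Without CRN/PPN2 +KOH replicate 1 it was 0.56 (edgeR adjusted p = 0.278), and it was also lost without CRN YPD replicate 2 (0.0835), CRN +KOH replicate 1 (0.0778), CRN +KOH replicate 2 (0.0722) or CRN/PPN2 YPD replicate 1 (0.126), at 0.84 to 1.12. With DESeq2 it was 1.07 (adjusted p = 0.0669), and with every library thinned to the smallest total it was 1.59 (edgeR adjusted p = 0.0922).

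**Figure D4:**
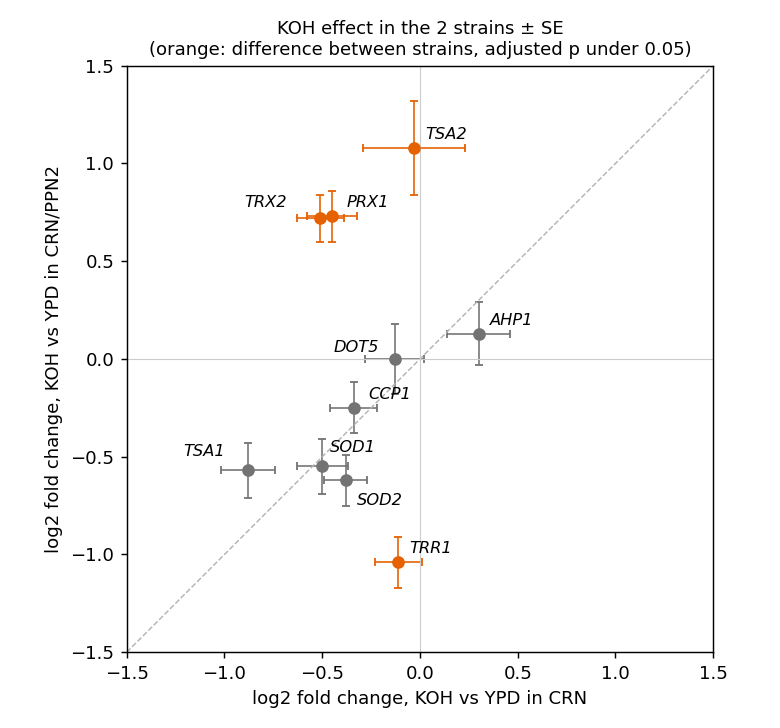
KOH effect in CRN (x axis) against that in CRN/PPN2 (y axis), both as log2 fold changes with SE, for the 10 genes, with a dashed line where both are equal. TRX2, PRX1 and TSA2 lie above the line and TRR1 below it (orange), and TSA1, SOD1 and SOD2 lie in the lower left with negative values in both strains.

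Genes chosen as related to these 10 were described from 7 lists, and membership in a list is no measured function. TRX3 and GSH1 stand on 2 of them and count under both. In YPD, where 6.5% of all genes tested were called, 1 to 3 members of each list were called between the strains. The lists held 4 to 13 tested genes each. GPX2, a phospholipid hydroperoxide peroxidase gene, fell by 1.33 on the log2 scale and MXR1, a methionine sulfoxide reductase gene that uses thioredoxin, by 0.47, and GPX1 rose by 0.80. The cytosolic catalase gene CTT1 was higher by 1.60, from 27.2 ± 3.26 to 82.6 ± 16 CPM (SD, n = 2). YAP1, the peroxide-responsive regulator gene, was higher by 0.61 (edgeR adjusted p = 0.00196), from 166 ± 9.29 to 254 ± 12.6 CPM, and was the only one of 8 regulators called. The glutathione transferase gene GTT2 was higher by 0.58. Of the NADPH genes, GND2 was higher by 0.84 and the aldehyde dehydrogenase gene ALD6 was lower by 0.76. HBN1 was higher by 1.16, and the other 11 tested targets of Yap1 on the list were not called. HBN1 counts in YPD were low, with 18 and 15 for CRN against 32 and 52 for CRN/PPN2. Its mean lay below 10 CPM in every group, and it passed the low-count filter only through CRN/PPN2 libraries. The HBN1 call is thus not independent of that filter. MET16, the gene of a reductase that uses thioredoxin, was lower by 0.72.

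For KOH vs. YPD in CRN, where 15.1% of all genes tested were called, no thioredoxin or peroxidase partner was higher and GPX2 was lower by 0.80. Of 13 genes of glutathione metabolism, GTT2 (-0.71), GTT1 (-0.61) and GRX2 (-0.44) were lower. Of 13 genes of NADPH supply, 2 were higher, ALD6 (1.11) and IDP3 (0.84), and 5 were lower, among them YEF1 (-0.74), IDP1 (-0.72) and GND1 (-0.70), the gene of the main 6-phosphogluconate dehydrogenase. The regulator genes GLN3 (-0.59), STB5 (-0.53) and MSN4 (-0.48) were lower. The transporter gene ATR1, a Yap1 target, was lower by 1.99, and RNR1 by 0.62.

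The counts for KOH vs. YPD in CRN/PPN2 stand beside 29.2% of all genes tested that were higher and 25.5% that were lower. Of 8 tested thioredoxin and peroxidase partners, 5 were higher and none lower (median 0.60), among them GPX1 (1.45), the mitochondrial thioredoxin gene TRX3 (1.38) and MXR1 (0.96). Of 13 genes of glutathione metabolism, 5 were higher, among them the glutaredoxin genes GRX1 (1.52), GRX8 (1.45) and GRX7 (1.29), and the glutathione reductase gene GLR1 was lower (-0.51). GRX1 went from 357 ± 47.7 to 1030 ± 157 CPM. CCS1, the copper chaperone gene of Sod1, was lower by 1.20, and the peroxisomal catalase gene CTA1 was higher by 1.28. CTA1 held only 20 and 13 counts in CRN/PPN2 with KOH, the one group in which it reached the filter of 10 CPM. Its call is therefore not independent of that filter. Beside SOD1, which fell by 0.55, CCS1 went from 215 ± 27.8 to 93.4 ± 2.99 CPM.

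In the same comparison NADPH supply split. IDP3 (2.31), GND2 (2.19) and IDP2 (2.19) were among 4 genes that were higher. GND1 (-1.44), ALD6 (-1.29) and SOL3 (-1.12) were among 6 that were lower. Of 12 tested other targets of Yap1, 6 were higher, among them OYE3 (1.90), AAD6 (1.5) and TRX3, and ATR1 was lower (-0.61). Of 8 regulators, MSN4 was higher (0.44) and 4 were lower, with GLN3 (-0.75), CAD1 (-0.70) and SKN7 (-0.60) the largest. YAP1 itself had a log2 fold change of -0.08 (edgeR adjusted p = 0.607). Of 5 genes of reductases that use thioredoxin, RNR1, the large subunit of ribonucleotide reductase, was lower by 1.17.

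Between the strains with KOH, where 30.8% of all genes tested were higher and 25.9% lower, the 12 tested Yap1 targets had the highest median of the 7 lists, at 0.96, with 7 higher and 1 lower, among them OYE3 (2.12), AAD6 (1.65) and TRX3 (1.55). GPX1 (2.01), TRX3 and MXR2 (0.92) were the 3 of 8 partners called, and none was lower. GRX1 (1.97), GRX2 (1.41) and GRX7 (1.16) led the 6 of 13 glutathione genes that were higher, and 2 were lower. CTT1 (1.80) and CTA1 (0.86) were higher and CCS1 (-1.18) and MTM1 (-0.37) lower. CTA1 passed the low-count filter only through CRN/PPN2 with KOH. ALD6 (-3.15), GND2 (2.98) and IDP2 (2.48) led the 5 higher and 5 lower genes of NADPH supply. SKN7 (-0.88), MSN4 (0.82) and MSN2 (-0.62) led the 1 higher and 4 lower regulators, and RNR1 (-0.74) was the 1 lower reductase gene.

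**Figure D5:**
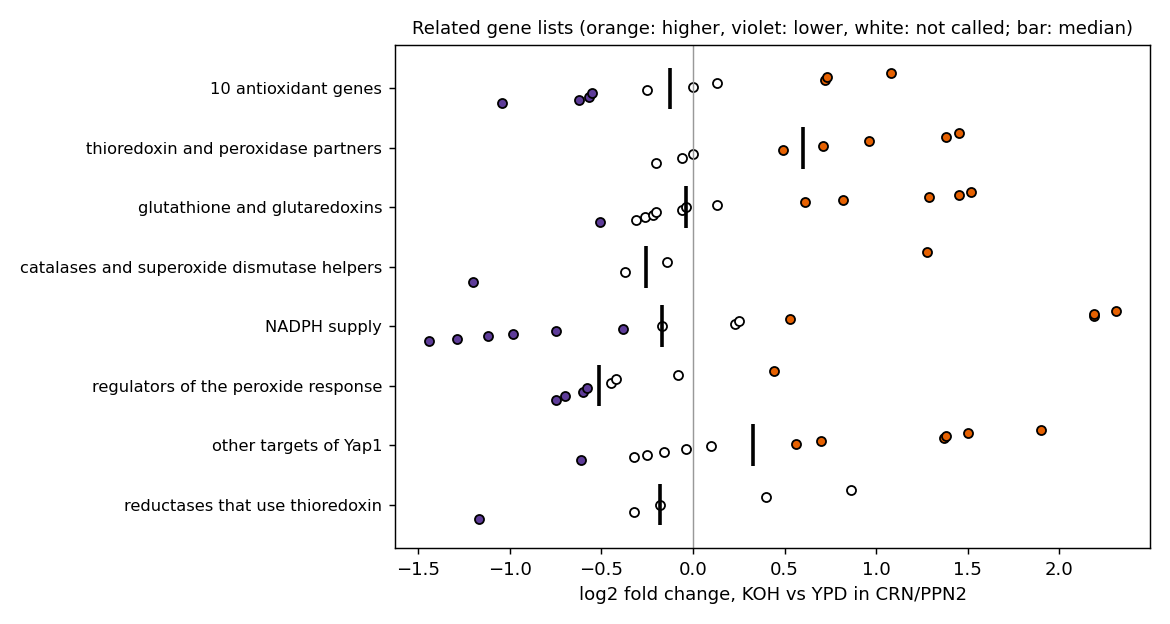
Log2 fold change for KOH vs. YPD in CRN/PPN2 (x axis) of the 10 genes and of 7 lists of related genes (y axis), with a point per gene, colored when called, and a bar at the median. The partner list lies furthest to the right, with its median at 0.60, and the NADPH genes spread from -1.44 to 2.31.

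The 500 bases before each start codon were searched on both strands for letters bound by Yap1 (TTACTAA and TGACTAA) and by the stress factors Msn2 and Msn4 (AGGGG). The motif TTACTAA stood before 5 of the 10 genes (TSA2, AHP1, TRX2, SOD1, SOD2) and before 11.8% of 6006 genes. TGACTAA stood before TSA2 and TRR1 and before 5.98% of all. AGGGG stood before 8 of the 10 and before 34.1% of all. TSA1, DOT5, PRX1 and CCP1 held neither of the first 2 in this window. Whether any match bears on the changes with KOH was not tested. A match is a description and no measured binding site.

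The windows of TSA2, TRX2 and TRR1 are shown because these 3 genes differed between the strains in their response to KOH and held a match. Each has 30 bases of RefSeq's R64 assembly on the strand of the gene, and capitals mark the match, which reads TTAGTAA or TTAGTCA where the motif lies on the other strand. The number in the name is the distance in bases from the match to the start codon. The windows lie at chrIV:1366117-1366146 and chrIV:1365942-1365971 (TSA2, reverse strand), chrVII:913426-913455 and chrVII:913390-913419 (TRX2, reverse strand) and chrIV:1183096-1183125 (TRR1, forward strand).
TSA2, 473: agttttttttgTTAGTAAgcgctacgacga
TSA2, 298: gtttacaagttTTAGTCAttgggggttgga
TRX2, 217: tgtttatactcTTAGTAAaggatgctccct
TRX2, 181: tggctcttttcTTACTAAgcgcgttcagtt
TRR1, 192: ttagcttctccTTAGTCAtggagaaaaaaa

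Across the 8 libraries, which come from 4 groups that also differ in depth, the log2 levels of the 10 genes were compared pairwise as a description, with the replicate effect removed. PRX1 correlated with TSA2 (Pearson r = 0.916) and TRX2 (0.915), and TSA2 with TRX2 (0.832). TRR1 ran against all 3 (r = -0.878 with TSA2, -0.84 with TRX2 and -0.824 with PRX1). TSA1 correlated with SOD1 (0.86) and SOD2 (0.843), and AHP1 ran against CCP1 (-0.847). How often other pairs of tested genes reached such r was not counted. The genes of all tested with the most similar levels were ESBP6 (0.987), MUP3 (0.985) and SFK1 (0.981) for TRX2, BDF2 (0.998), PIC2 (0.997) and PAN5 (0.996) for PRX1, and YPI1 (0.996), RCF3 (0.991) and UIP4 (0.986) for TSA2. For TRR1 they were RAS2 (0.999), ERG1 (0.996) and NAT1 (0.996). For SOD2 they were RIP1 (0.996), a subunit of the respiratory cytochrome bc1 complex, UBX5 (0.99) and SCS7 (0.986), and for CCP1 they were SDH2 (0.983), a subunit of succinate dehydrogenase, UGA1 (0.976) and GGA1 (0.975). For the others they were SER1 (0.98), ARG7 (0.977) and GAT1 (0.976) for TSA1, CLB1 (0.988), ALD5 (0.984) and ARO8 (0.98) for SOD1, EOS1 (0.964), RSR1 (0.947) and SRD1 (0.942) for AHP1, and SGS1 (0.935), SEF1 (0.901) and KIN82 (0.872) for DOT5. SEF1 is also the neighbor of PRX1 on chromosome II.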

How the data were processed

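Poly(A) RNA was sequenced in 8 libraries, 2 for each of 4 groups. Reads were aligned by the authors to R64 using STAR 2.7.6a, and the deposited values are raw counts per gene. Which strand column was counted is not given in the sources used here. Counts were tested in R 4.3.3 with edgeR 4.0.16 (at least 10 CPM in at least 2 libraries, TMM factors, quasi-likelihood test, Benjamini-Hochberg threshold 0.05, with terms for the 4 groups and for the replicate number as a block). By the study's methods, samples of one number were prepared and sequenced together. The differences between replicates correlated between groups with r of 0.0926 to 0.467. Intervals are the log2 fold change ± 1.96 SE. Lack of overlap between groups of 2 libraries is given as a description, and its share over all genes was not counted. The members and lists were chosen with earlier results of these data known. Named are all 10 genes and, of each list, up to 3 called genes per comparison and direction. Also named are near copies, markers, strain checks, and the 3 genes most similar to each member. Lengths, names and sequences come from RefSeq's R64 assembly (6047 of 7127 IDs matched). Alternatives used DESeq2 1.42.0, sva 3.50.0 (ComBat-seq), upper quartile or RLE factors, filterByExpr or no filter, thinning, fewer libraries and no block. The test was checked on simulated data in which all groups had the same spread and no replicate effect. That check does not cover the wider spread of CRN/PPN2 with KOH. Figures were drawn with matplotlib 3.10.9.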

Additional observations from a re-analysis of the deposited data

Results flagged for a closer look

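The KOH effect differed between the strains by the test of the difference itself for 4 of the 10 genes, beside 39.7% of all genes tested, so the share of the 10 genes is near that of all genes. The difference (CRN/PPN2 minus CRN, on the log2 scale) was 1.11 for TSA2 (edgeR adjusted p = 0.0191), 1.18 for PRX1 (edgeR adjusted p = 7.28e-05), 1.23 for TRX2 (edgeR adjusted p = 3.49e-05) and -0.93 for TRR1 (edgeR adjusted p = 0.000605). Strain, harvest time and lysis cannot be told apart in this difference, since the cells with KOH were harvested after 40 h in CRN and after 25 h in CRN/PPN2 and were lysed differently.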

How the results depend on the processing

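Of 860 values of the 10 genes under the alternatives, 755 kept their direction and side of the threshold, 61 lost a call, 17 gained one and 27 turned sign, none of them a called value. PRX1, TRX2 and TRR1 kept their calls under all alternatives run in the strain comparison with KOH, in KOH vs. YPD in CRN/PPN2 and in the difference between strains. Without the replicate block, 132 genes and 0 of the 10 were called for CRN/PPN2 vs. CRN in YPD, against 353 and 2 with it, and 362 and 2 for KOH vs. YPD in CRN, against 822 and 5. Besides the calls named above, the block changed no other call of the 10. For CRN/PPN2 vs. CRN in YPD, 556 genes were called after ComBat-seq, 125 after thinning (0 of the 10), 736 with the 4 libraries alone and 812 without both CRN/PPN2 +KOH libraries, and DESeq2 called 1 of the 10. For KOH vs. YPD in CRN these counts were 309 after thinning (3 of the 10), 1722 with the 4 libraries alone and 1416 without both CRN/PPN2 +KOH libraries, and DESeq2 called 530 (3 of the 10). For the difference between strains thinning gave 1217 genes, against 2156. Leaving out single libraries gave 98 to 815 genes and 0 to 3 of the 10 (CRN/PPN2 vs. CRN in YPD), and 204 to 1414 genes and 1 to 6 of the 10 (KOH vs. YPD in CRN). Upper quartile factors moved the median of all genes by -0.11 between the strains with KOH, -0.10 for KOH in CRN/PPN2 and -0.11 for the difference, where 994 genes were then higher and 1240 lower, against 1203 and 953. The majority also turned between the strains with KOH (1461 higher and 1715 lower, against 1672 and 1405) and for KOH in CRN/PPN2 (1371 and 1691, against 1586 and 1386). The cause of these shifts was not tested.

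The values that turned sign were all uncalled. DOT5 in YPD between strains was -0.10 after thinning, and with KOH -0.19. TSA1 between strains with KOH was -0.06 with upper quartile factors and -0.02 without a filter. DOT5 for KOH in CRN/PPN2 was 0.01 after ComBat-seq and 0.00 with RLE factors. For the difference between strains, thinning gave -0.10 for DOT5, 0.01 for SOD1 and -0.19 for CCP1, and upper quartile factors -0.02 for CCP1. Leaving out single libraries gave -0.12 to 0.29 for DOT5 and -0.02 to 0.13 for TSA1 between the strains in YPD and with KOH, -0.09 to 0.03 for TSA2 in KOH vs. YPD in CRN, -0.14 to 0.40 for AHP1 and -0.20 to 0.19 for DOT5 in KOH vs. YPD in CRN/PPN2, and -0.45 to 0.10 for AHP1, -0.08 to 0.32 for DOT5 and -0.25 to 0.13 for SOD1 in the difference.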
